A study of Homo sapiens with 12 samples.

Results

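The genes described here are the RAB GTPases of human TMD8 cells, an established line of activated B-cell-like (ABC) diffuse large B-cell lymphoma, after silencing of the transcription factor IRF4. They are the protein-coding rows of the deposited gene table whose symbol is RAB followed by digits, an optional letter and an optional digit. This rule selected 59 of 26318 rows, and 50 of these 59 had enough reads to be tested. The markers RAB29 and RAB14 are among them.

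RAB proteins are small GTPases that mark membrane compartments and steer vesicles between them. Each cycles between a GDP-bound form, kept soluble in the cytosol, and a GTP-bound form on the membrane that recruits effectors such as tethers and motors. Exchange factors switch a RAB on, GTPase-activating proteins switch it off, and a prenyl anchor holds it in the membrane. In B cells these pathways carry newly made antibody and surface receptors outward, and internalised antigen inward to the compartments where peptides are loaded.

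The study compared 6 libraries of cells given IRF4 shRNA with 6 libraries of cells given scramble shRNA, called control below. Cell pellets were taken at 24 h, and poly(A) RNA was read as stranded, 100 bp paired-end libraries. The library names split each group into series 1 and series 2, with 3 libraries of each group in each series; what the series stand for, the hairpins used and whether the libraries came from separate cultures are not stated in these sources. The p-values therefore measure the spread between these libraries, which may be technical. The cell line field of the labels carries a number that climbs from sample to sample, whereas every title names TMD8. Being bulk RNA, the data cannot tell fewer cells of a kind from less RNA per cell.

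Libraries held 31.9M to 38.2M assigned fragments (M, 1e+06) in the IRF4 shRNA group and 31.3M to 36.0M in the control group, so that 3 fragments, the limit that a count of 0 allows, corresponded to 0.0763 to 0.0981 CPM (counts per 1e+06 assigned fragments, with TMM-scaled library sizes; counting error only). IRF4 itself averaged 611 ± 101 CPM in IRF4 shRNA libraries and 1481 ± 55.9 CPM in control libraries (SD, n = 6 each) (log2 fold change -1.28, SE 0.09, edgeR adjusted p = 1.41e-08). The B cell genes CD79A, CD79B, MS4A1, PAX5 and CD22 averaged between 577 and 2806 CPM in the IRF4 shRNA group and between 300.1 and 2141 CPM in the control group. Of 16 markers of other cell types, 11 were listed in the table, summing to 15 to 20.3 CPM in IRF4 shRNA libraries and 12.2 to 16.2 CPM in control libraries, and 4 had enough reads to be tested: PECAM1 was at 7.31 CPM with IRF4 shRNA and 3.77 CPM in control, and CD4, COL1A1 and CD8A lay between 0.439 and 5.07 CPM with IRF4 shRNA and between 0.572 and 5.56 CPM in control. KRT18 was at 0 in every library and CD3E reached at most 0.0307 CPM. All 6 interferon-response genes checked (IFIT1, IFIT2, IFIT3, MX1, OAS1 and ISG15) were higher with IRF4 shRNA, with a median log2 fold change of 3.62. The part of these genes and markers in the RAB results was not tested. Libraries also differed in how their values followed transcript GC content. Across genes, a library's deviation from its group mean correlated with GC at rho 0.24 to 0.31 in IRF4 shRNA libraries of series 1 and -0.33 to -0.19 in those of series 2. In the control group, replicates 5 and 6 stood apart with rho of 0.42 and 0.60, against -0.50 to -0.05 in the other 4 libraries. Differences between series, below, are given with and without control replicates 5 and 6.

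Promoter windows are shown for 3 members that the results turn on: RAB27A and RAB8B, which were higher with IRF4 shRNA, and RAB29, which was lower. Each runs from 250 bases before to 50 bases after a RefSeq start site (GRCh38.p14), 5′ to 3′ on the gene's strand: RAB27A at chr15:55319074-55319373 on the minus strand, RAB29 at chr1:205775433-205775732 on the minus strand and RAB8B at chr15:63189356-63189655 on the plus strand. Capitals mark a match to the core of the interferon-stimulated response element that IRF proteins are known to bind (GAAA, any 2 bases, GAAA), found here on the opposite strand.
RAB27A: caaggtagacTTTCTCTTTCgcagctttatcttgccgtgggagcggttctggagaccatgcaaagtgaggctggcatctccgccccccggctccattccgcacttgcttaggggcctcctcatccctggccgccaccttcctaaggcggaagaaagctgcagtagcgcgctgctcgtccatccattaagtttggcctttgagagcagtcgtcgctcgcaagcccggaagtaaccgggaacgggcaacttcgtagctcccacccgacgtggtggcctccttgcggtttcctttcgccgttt
RAB29: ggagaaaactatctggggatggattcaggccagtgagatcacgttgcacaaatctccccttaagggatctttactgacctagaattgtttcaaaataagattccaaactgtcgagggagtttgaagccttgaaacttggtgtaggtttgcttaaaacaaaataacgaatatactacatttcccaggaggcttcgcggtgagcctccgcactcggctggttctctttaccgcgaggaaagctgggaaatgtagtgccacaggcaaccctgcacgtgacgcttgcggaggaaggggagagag
RAB8B: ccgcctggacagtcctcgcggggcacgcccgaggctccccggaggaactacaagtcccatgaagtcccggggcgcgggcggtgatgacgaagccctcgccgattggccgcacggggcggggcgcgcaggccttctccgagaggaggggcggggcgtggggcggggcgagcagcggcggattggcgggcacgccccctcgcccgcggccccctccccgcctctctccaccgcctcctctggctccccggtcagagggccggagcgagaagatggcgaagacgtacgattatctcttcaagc
RAB27A has 5 RefSeq windows, and the other 4 held neither this motif nor the composite one named next. The RAB29 and RAB8B windows held neither this motif nor the composite element bound by IRF4 with ETS factors (GGAA, any 2 bases, GAAA). RefSeq windows were matched for 46 of the 59 members, 67 windows in all because some genes have several start sites. The response element was found on either strand in 2 of the 67 windows (2.99%), those of RAB19 and RAB27A, against 3.57% of 35116 windows of all genes. The composite element was found in 4 of the 67 (5.97%), those of RAB7B, RAB13, RAB25 and RAB40C, against 2.82% of all windows. RAB7B and RAB25 had too few reads to be tested. Among the 60 windows of tested members the composite element was found in 2 (3.33%) and the response element in 1 (1.67%). A match is a stretch of letters and not a measured binding site.

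Most of the large fold changes in the family lay among members of low abundance, and RAB29 was the exception among the most abundant members. How fold changes lay by abundance over all genes was not computed, so this is not read as particular to RAB genes. Levels per length of exon (CPM per kb) were led in IRF4 shRNA libraries by RAB7A, which drives late endosomes to lysosomes, at 82.7 ± 1.10, by RAB1B, which acts between endoplasmic reticulum (ER) and Golgi, at 63.1 ± 4.09, by RAB5C of the early endosome at 47.3 ± 3.64 and by RAB29 of the trans-Golgi network at 44.9 ± 3.08. In control libraries the level per kb was 75.1 ± 3.05 for RAB7A, 68.6 ± 6.40 for RAB1B, 39.2 ± 4.31 for RAB5C and 69.9 ± 1.61 for RAB29 (SD, n = 6). RAB29 and RAB1B thus lay within their spread of each other in control, while in IRF4 shRNA libraries RAB29 lay below RAB1B. RAB10, an exocytic RAB, followed at 24.0 ± 1.15 per kb with IRF4 shRNA and 27.9 ± 0.658 in control, and RAB1A, RAB30, RAB14, RAB5A, RAB11A and RAB5B came next in control at 23.4 to 24.5 per kb, neighbours whose levels did not differ beyond their spread.

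**Figure D1:**
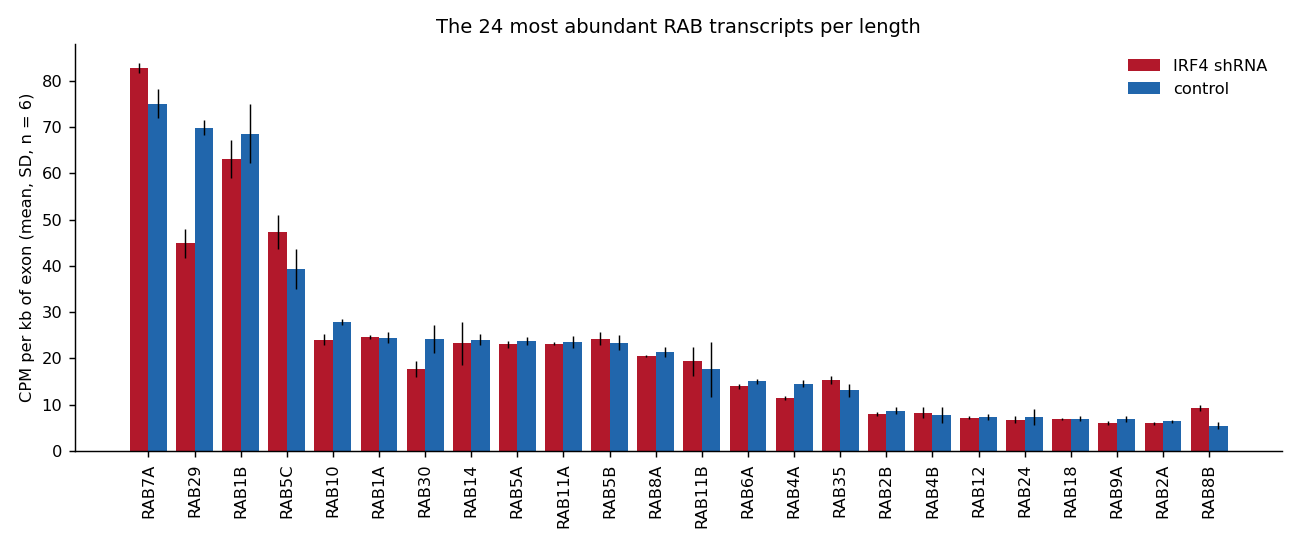
Level of the 24 most abundant RAB transcripts in CPM per kb of exon, as the mean with SD over 6 IRF4 shRNA libraries (left bar) and 6 control libraries (right bar). RAB7A, RAB29, RAB1B and RAB5C stand above the others, and RAB29 is 44.9 with IRF4 shRNA against 69.9 in control.

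Summed over all 59 members, the RAB genes took 2270 ± 34.2 CPM in IRF4 shRNA libraries and 2425 ± 17.1 CPM in control libraries, ranging from 2233 to 2317 and from 2398 to 2442 with no overlap. The difference of -154 CPM was made up of -97.0 CPM from RAB29 and -75.8 CPM from RAB30, and the other members together differed by 18.4 CPM in the opposite direction. By mean control level, 10 members lay at 100 CPM or more, 18 at 10 to 100 CPM, 14 at 1 to 10 CPM and 17 under 1 CPM. Of the 28 members at 10 CPM or more, 2 changed by at least 1.5-fold, RAB29 and RAB8B. The share of all genes at that level was not computed, so this count is not read as particular to RAB genes.

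Over all 12 libraries, 10 members were higher and 14 lower with IRF4 shRNA at an adjusted p under 0.05 in edgeR's quasi-likelihood test, 48% of the 50 tested, where 48.2% of all 16437 genes tested were called (24.2% higher and 23.9% lower). The share called was that of the transcriptome, so the count says nothing particular about RAB genes. The median log2 fold change of the 50 was -0.04, against -0.01 over all genes. At least 1.5-fold changes were called for 10 members (20%), 6 higher and 4 lower, against 18% of all genes. The 2 groups of 6 libraries did not overlap in CPM for 15 members (30%), 7 higher and 8 lower, against 30.8% of all genes (16.2% higher and 14.7% lower).

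**Figure D2:**
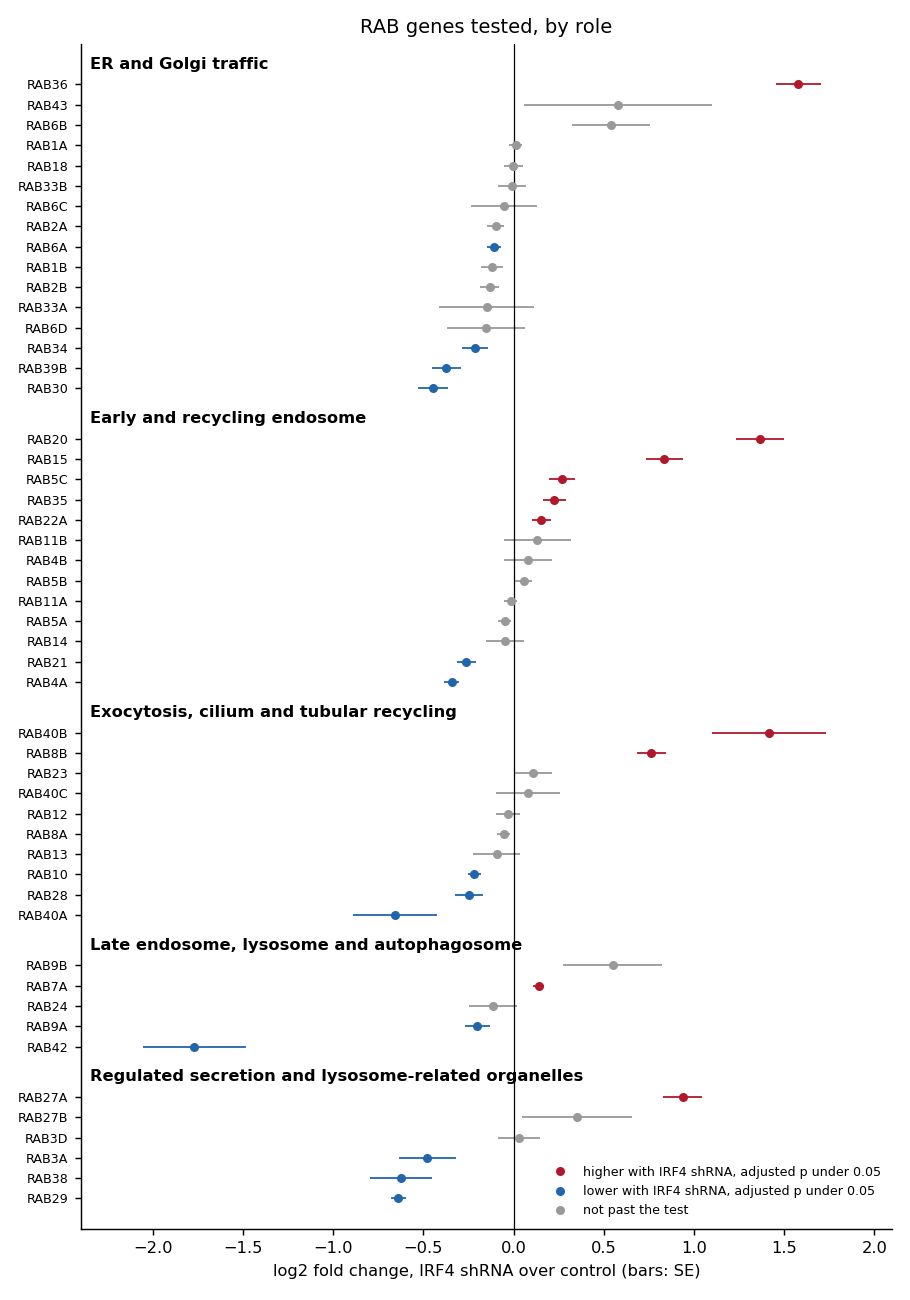
Log2 fold change of the 50 tested RAB genes, IRF4 shRNA over control, from edgeR with all 12 libraries; bars are the SE, and colours mark members higher, lower or not past an adjusted p of 0.05. The estimates run from -1.77 (RAB42) to 1.58 (RAB36), and most lie near 0.

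Among RABs of the ER and Golgi, 1 of 16 tested was higher and 4 were lower. The higher one was RAB36, a Golgi RAB that also acts in the positioning of late endosomes and lysosomes. Its values were 3.16, 3.87 and 5.14 CPM (lowest, median and highest of 6) in IRF4 shRNA libraries, against 1.10, 1.34 and 1.54 CPM in control libraries. Every IRF4 shRNA library lay above every control library (log2 fold change 1.58, SE 0.13, edgeR adjusted p = 7.02e-08), the largest rise among the 50 tested members.

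RAB30, a Golgi RAB, was lower. It read 189, 210 and 230 CPM in IRF4 shRNA libraries and 233, 302 and 319 CPM in control libraries (lowest, median and highest). The groups did not overlap, although the lowest control library, replicate 6, came within a few CPM of the highest IRF4 shRNA library. The log2 fold change was -0.44 (SE 0.08, edgeR adjusted p = 0.000437). RAB39B, mutated in an X-linked parkinsonism with intellectual disability, was also lower at 7.63 ± 0.278 CPM with IRF4 shRNA and 9.88 ± 1.31 CPM in control (log2 fold change -0.37). RAB34 (-0.21), which acts in ciliogenesis and lysosome positioning, and RAB6A (-0.11), which runs traffic within the Golgi and back to the ER, were the other 2 lower members. RAB1A and RAB1B, the RABs of ER-to-Golgi transport through which secreted antibody passes, were not past the test, with log2 fold changes of 0.01 and -0.12 (SE 0.04 and 0.06). RAB1B read 117, 128 and 137 CPM with IRF4 shRNA and 127, 135 and 160 CPM in control, which overlap. RAB2A, RAB2B, RAB18 and RAB33B were likewise not past the test, with estimates between -0.13 and -0.002. RAB43 shares its exons with the readthrough row ISY1-RAB43, which held 7811 fragments over the 12 libraries against 818 for RAB43, so its value is uncertain.

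Early and recycling endosome RABs had 5 higher and 2 lower of 13 tested. RAB20, which acts on phagosomes and early endosomes, had the largest change of this group. It read 4.53, 4.86 and 6.62 CPM in IRF4 shRNA libraries, against 1.47, 1.93 and 2.51 CPM in control libraries (lowest, median and highest). The groups lay well apart (log2 fold change 1.36, SE 0.13, edgeR adjusted p = 6.93e-07). RAB15, which acts in receptor recycling, read 4.09, 5.0 and 5.79 CPM with IRF4 shRNA and 2.21, 2.82 and 3.30 CPM in control. Here too no libraries overlapped (log2 fold change 0.84, SE 0.10, edgeR adjusted p = 9.16e-06).

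The abundant RAB5C, 1 of 3 RAB5 paralogues of the early endosome, rose by less: it read 118, 132 and 143 CPM in IRF4 shRNA libraries and 97.1, 108 and 129 CPM in control libraries. The ranges overlapped, and the log2 fold change was 0.27 (SE 0.07, edgeR adjusted p = 0.00518). RAB35 of fast recycling (0.23) and RAB22A of the early endosome (0.15) were the other higher members. RAB4A, which recycles receptors quickly to the surface, fell to 37.9 ± 1.44 CPM with IRF4 shRNA, against 48.2 ± 2.19 CPM in control (log2 fold change -0.34, SE 0.04, edgeR adjusted p = 5.98e-06), with no overlap. RAB21, which follows integrins through endosomes, read 67.8, 73.1 and 77.3 CPM with IRF4 shRNA and 76.1, 88.3 and 96.1 CPM in control (log2 fold change -0.26), overlapping through 1 library of each group. RAB5A, RAB5B and RAB11A were not past the test, with log2 fold changes of -0.05, 0.05 and -0.02 (SE 0.03, 0.05 and 0.04).

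Of the RABs of exocytosis, cilium and tubular recycling, 2 of 10 were higher and 3 lower. RAB8B, which with RAB8A carries cargo to the plasma membrane, read 44.8, 46.7 and 53.3 CPM in IRF4 shRNA libraries, against 23.3, 27.7 and 33.7 CPM in control libraries. The groups did not overlap and the log2 fold change was 0.76 (SE 0.08, edgeR adjusted p = 1.73e-06). RAB8A was not past the test at 107 ± 1.29 CPM with IRF4 shRNA and 111 ± 5.09 CPM in control (log2 fold change -0.06, SE 0.03, edgeR adjusted p = 0.195).

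RAB40B belongs to the RAB40 subfamily, whose members carry a SOCS box that binds a cullin ubiquitin ligase. It read 0.828, 1.12 and 1.38 CPM in IRF4 shRNA libraries and 0.0654, 0.461 and 0.736 CPM in control libraries, without overlap (log2 fold change 1.42, SE 0.32, edgeR adjusted p = 0.00174). Its paralogue RAB40A went the other way at a similar low level, with 0.203, 0.398 and 0.517 CPM with IRF4 shRNA and 0.399, 0.661 and 0.787 CPM in control. These ranges overlapped, and the fall of RAB40A (log2 fold change -0.66, SE 0.23, edgeR adjusted p = 0.0304) lost its call when any of 7 libraries was left out, with adjusted p up to 0.0718 without control replicate 2. Over all alternatives it lost its call under 13 of 23. Its log2 fold change was -1.13 in series 1 and -0.17 in series 2 (edgeR adjusted p = 0.0144 and 0.692). The difference between series was not past the test (edgeR adjusted p = 0.156). Together RAB40A and RAB40B held 207 and 327 fragments over 12 libraries. Each met the filter on low counts only with the libraries of the group where it was higher. RAB10, an exocytic RAB, read 82.2, 87.4 and 93.0 CPM with IRF4 shRNA and 97.6, 101 and 104 CPM in control, a small shift with no overlap (log2 fold change -0.22, SE 0.04, edgeR adjusted p = 0.000161). RAB28, a ciliary RAB, was lower (log2 fold change -0.25).

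Late endosome, lysosome and autophagosome RABs had 1 higher and 2 lower of 5 tested. RAB7A, the highest RAB per kb of exon, read 220, 225 and 228 CPM with IRF4 shRNA and 191, 204 and 216 CPM in control. The groups did not overlap, and the rise was small (log2 fold change 0.14, SE 0.03, edgeR adjusted p = 0.0018). RAB9A, which returns cargo from late endosomes to the trans-Golgi network, was lower (-0.20). RAB42, a little-studied RAB, had the largest fall among the tested members, with 0.0763, 0.144 and 0.232 CPM in IRF4 shRNA libraries and 0.337, 0.532 and 0.556 CPM in control libraries. RAB42 passed the filter on low counts through its control libraries alone, the group where it was higher. Its rank and p-value are therefore those of a gene selected by its control level. No library overlapped (log2 fold change -1.77, SE 0.28, edgeR adjusted p = 0.000109), but the gene held only 131 fragments in all 12 libraries and lies on the opposite strand to TAF12, which held 2027. The sources used here do not say whether the authors' counting used strand.

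Among RABs of regulated secretion and lysosome-related organelles, 1 of 6 tested was higher and 3 were lower. RAB27A, which docks secretory lysosomes, lytic granules and exosome-bearing endosomes at the plasma membrane, read 4.69, 4.96 and 5.45 CPM in IRF4 shRNA libraries, against 2.09, 2.55 and 3.41 CPM in control libraries. The groups were separate (log2 fold change 0.94, SE 0.11, edgeR adjusted p = 4.41e-06). RAB27A held 1599 fragments and overlaps PIGBOS1 on the same strand (2725) and PIGB on the opposite strand (3706), so its counts may share reads with them. Its paralogue RAB27B was at 0.735 ± 0.214 CPM with IRF4 shRNA and 0.579 ± 0.253 CPM in control, not past the test (edgeR adjusted p = 0.367).

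RAB29, which recruits the kinase LRRK2 to the trans-Golgi network and to stressed lysosomes, carried the largest change in reads. It read 163, 174 and 186 CPM in IRF4 shRNA libraries and 265, 269 and 280 CPM in control libraries. The lowest control library lay far above the highest IRF4 shRNA library (log2 fold change -0.64, SE 0.04, edgeR adjusted p = 9.75e-09), the smallest adjusted p in the family. RAB38, known for cargo delivery to melanosomes, was lower at 0.506, 0.897 and 1.01 CPM with IRF4 shRNA and 1.10, 1.26 and 1.53 CPM in control (log2 fold change -0.63, SE 0.17, edgeR adjusted p = 0.00743), without overlap. RAB3A, known for synaptic vesicle release, read 2.42, 3.21 and 3.99 CPM with IRF4 shRNA and 3.61, 3.93 and 6.01 CPM in control, which overlap (log2 fold change -0.48, SE 0.16, edgeR adjusted p = 0.0204). The 2 highest control values of RAB3A were those of replicates 5 and 6. Without these 2 libraries its log2 fold change was -0.26 (edgeR adjusted p = 0.126), and without IRF4 shRNA replicate 5 or 6 the adjusted p was 0.056 and 0.0578. RAB3A also lies opposite MPV17L2, which held 12983 fragments against 1552.

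**Figure D3:**
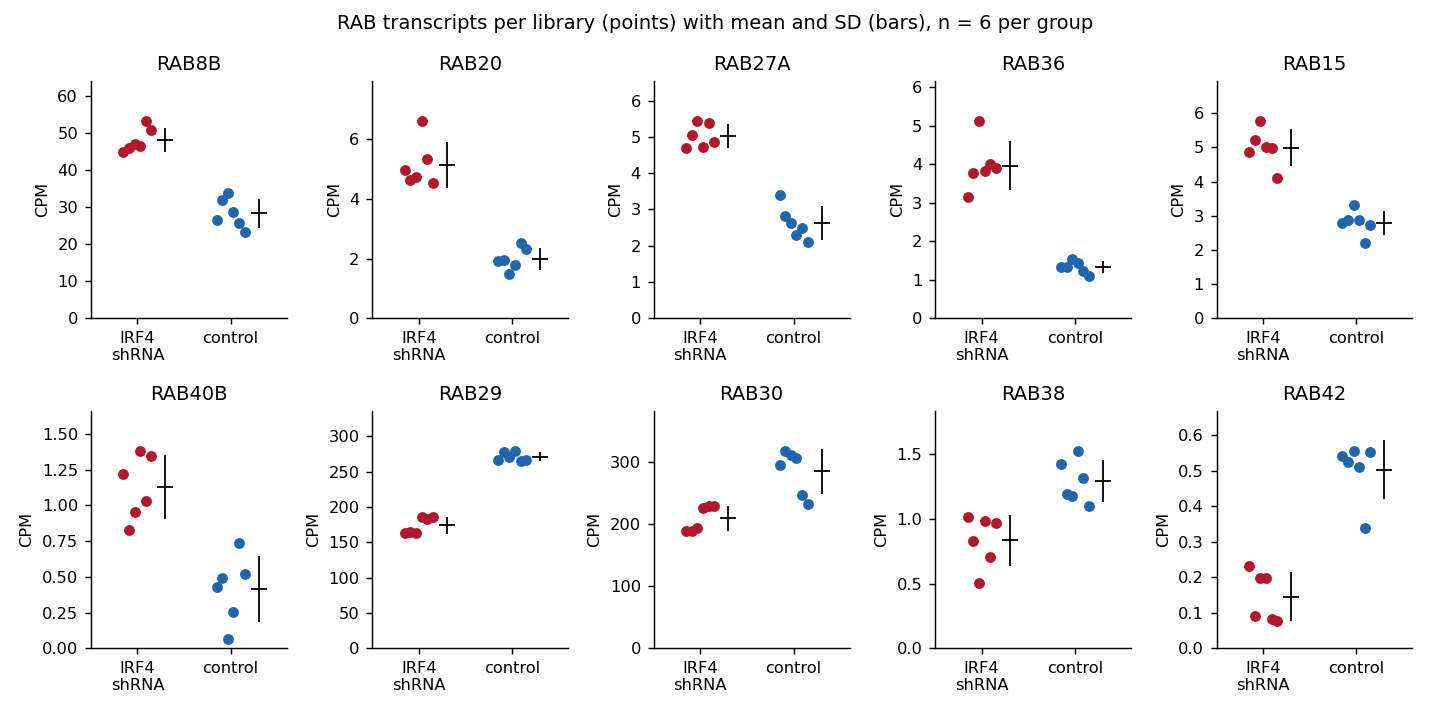
CPM of 10 RAB genes in each library, with IRF4 shRNA libraries left and control libraries right in each panel; the bar beside each group is the mean with SD (n = 6), and each panel has its own axis starting at 0. The 10 genes were taken from the 15 tested members whose groups do not overlap (30%, against 30.8% of all genes), so the panels do not stand for the family.

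The 9 members left untested had at most 108 fragments over the 12 libraries: RAB3B, RAB7B, RAB19, RAB25, RAB26, RAB31, RAB37, RAB39A and RAB44. RAB39A had 0 in every library. RAB7B, a lysosomal and trans-Golgi RAB of myeloid cells, had 23 fragments in the 6 IRF4 shRNA libraries (0 to 6 per library), against 1 in the 6 control libraries. With no filter on low counts its edgeR adjusted p was 0.00377. RAB37 had 10 fragments with IRF4 shRNA and 1 in control (edgeR adjusted p = 0.0316 with no filter), and the other 6 with any reads were not past the test there.

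Paralogues that share a RAB number could be compared within each library, where depth and scaling cancel. A trend with GC content need not cancel where paralogues differ in GC, and no ratio was computed with that trend removed. The log2 ratio of the 2 paralogues was tested between groups for 21 pairs by an exact two-sided permutation test, whose smallest possible p is 0.00216. The ratio of RAB8A to RAB8B was 1.15 ± 0.0862 with IRF4 shRNA and 1.98 ± 0.243 in control on the log2 scale (difference -0.82, exact p = 0.00216, Benjamini-Hochberg 0.0152 over the pairs), so RAB8B made up more of the pair after IRF4 shRNA. The ratio of RAB40A to RAB40B differed by -2.11 and that of RAB40B to RAB40C by 1.37 (exact p = 0.00216 and Benjamini-Hochberg 0.0152 each). RAB40A and RAB40B each met the filter on low counts only with the libraries of the group where it was higher. The direction of these ratios was therefore favoured by the filter, and RAB40A and RAB40B held only 207 and 327 fragments. Another 3 pairs passed at a Benjamini-Hochberg value of 0.0455: RAB5A to RAB5C (-0.32), RAB6A to RAB6B (-0.64) and RAB6B to RAB6C (0.57). The transcripts of RAB5A and RAB5C have 42.0% and 55.8% GC, and their ratio differed by -0.53 in series 1 and -0.11 in series 2. RAB6C is a near-identical retrogene copy of RAB6A, so reads may be split between them, and RAB6B and RAB6C held 252 and 310 fragments. RAB6B lies opposite SRPRB, which held 18538 fragments, and RAB8A (44920 fragments) overlaps HSH2D on the same strand (49277), so reads of these genes too may be split or shared. When libraries were left out 1 at a time, 3 to 8 pairs passed, 3 of them in 8 of the 12 cases, and the RAB8A to RAB8B difference stayed between -0.88 and -0.75. The remaining 15 pairs were not past the test.

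The library series gave partly different results. In series 1, 14 members were higher and 11 lower of 51 tested, against 50.5% of all genes called (25.8% higher and 24.6% lower). The 14 include RAB3B (log2 fold change 1.09, edgeR adjusted p = 0.0446), which passed the filter in series 1 alone. It did so only through the IRF4 shRNA libraries, where it was higher, so its direction was favoured by the filter. Over all libraries with no filter its edgeR adjusted p was 0.116. In series 2, 10 were higher and 7 lower of 50, against 38.1% of all genes called (20.2% higher and 17.9% lower). Of the 50 members tested over all libraries, 10 were called in the same direction in both series (20%, where 26.8% of all genes were), 6 higher (RAB8B, RAB15, RAB20, RAB27A, RAB36 and RAB40B) and 4 lower (RAB4A, RAB10, RAB29 and RAB42). A further 13 were called in series 1 alone, 6 in series 2 alone and 20 in neither, and the sign was the same in both series for 33 of 50. These last 4 counts were not made over all genes, so they are not read as particular to RAB genes. Fold changes in the 2 series correlated with Spearman's rho of 0.39 across the members and 0.59 across 16290 genes. A call in 1 series alone does not show a difference between them, which was tested separately.

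**Figure D4:**
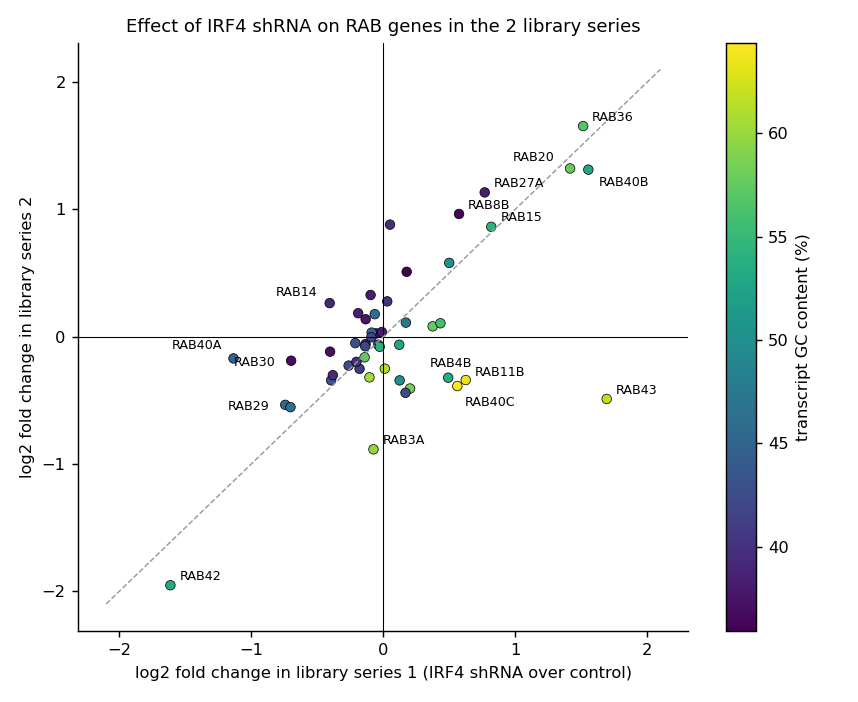
Log2 fold change (IRF4 shRNA over control) of the 50 tested RAB genes in library series 1 (x axis) and series 2 (y axis), coloured by transcript GC content; the dashed line marks equal effects. RAB36, RAB20, RAB40B, RAB27A, RAB15, RAB8B, RAB29 and RAB42 have the same sign in both series, RAB14 is lower in series 1 and higher in series 2, and GC-rich members such as RAB11B and RAB40C lie below it.

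RAB14, which acts between Golgi and endosomes, was the single member called in opposite directions, as were 1.07% of all genes. In series 1 it read 83.9, 81.3 and 80.2 CPM in IRF4 shRNA libraries, against 104, 110 and 110 CPM in control libraries. In series 2 it read 116, 119 and 119 CPM in IRF4 shRNA libraries, against 102, 98.6 and 96.9 CPM in control libraries. Within each series the groups did not overlap, but IRF4 shRNA lay below control in series 1 and above it in series 2. The log2 fold change was -0.41 in series 1 (SE 0.04, edgeR adjusted p = 7.04e-06) and 0.26 in series 2 (SE 0.05, edgeR adjusted p = 0.00208), and pooling the series gave -0.05 (SE 0.11, edgeR adjusted p = 0.727). The difference between the series' effects was -0.65 (SE 0.06, edgeR adjusted p = 0.000118), the smallest adjusted p of the family in that test. It was -0.61 without control replicates 5 and 6 and -0.43 with the GC trend removed (edgeR adjusted p = 0.000534 and 0.000492). RAB14 partly overlaps GSN on the opposite strand, whose row held 4115 fragments against 42157.

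The difference between series passed the test for 10 of 50 members, 5 with the higher value in series 1 and 5 with the higher value in series 2, where 14% of all genes were called (8.97% and 5.07%). For RAB30 the 3 IRF4 shRNA libraries of series 1 read 190, 189 and 195 CPM, against 296, 319 and 312 CPM in control. In series 2 they read 226, 230 and 229 CPM, against 307, 247 and 233 CPM in control, where replicates 5 and 6 are the 2 low values. Its log2 fold change was -0.70 in series 1 and -0.19 in series 2 (edgeR adjusted p = 2.91e-08 and 0.126), a difference of -0.49 (edgeR adjusted p = 0.0137). Without control replicates 5 and 6 that difference was -0.26 (edgeR adjusted p = 0.0433). RAB29 was lower in both series, with log2 fold changes of -0.74 in series 1 and -0.54 in series 2 and 163 ± 0.596 and 185 ± 1.73 CPM in IRF4 shRNA libraries against 272 ± 5.39 and 270 ± 8.15 CPM in control libraries (SD, n = 3). The difference of -0.19 between its effects (edgeR adjusted p = 0.0284) was -0.14 without control replicates 5 and 6 and -0.078 with the GC trend removed (edgeR adjusted p = 0.23 and 0.274). The effect on IRF4 itself also differed between series, by -0.46 on the log2 scale (edgeR adjusted p = 0.0011).

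RAB4B and RAB11B, paralogues of the recycling RABs RAB4A and RAB11A, were higher in series 1 and not past the test in series 2. RAB4B read 37.1, 35.1 and 38.1 CPM with IRF4 shRNA and 28.9, 24.0 and 25.2 CPM in control in series 1. In series 2 it read 28, 28.4 and 27.8 CPM with IRF4 shRNA and 27.4, 39.8 and 38.8 CPM in control, the last 2 values being those of replicates 5 and 6. The difference between series was 0.83 (SE 0.16, edgeR adjusted p = 0.00964), and 0.47 without these 2 libraries (edgeR adjusted p = 0.0612). RAB11B read 55.3, 52.5 and 56.4 CPM with IRF4 shRNA and 42.7, 33.5 and 29.5 CPM in control in series 1, and 43.2, 40.7 and 38.3 CPM with IRF4 shRNA and 32.5, 58.2 and 65.0 CPM in control in series 2. Its difference of 0.98 (edgeR adjusted p = 0.0281) became 0.31 without them and 0.38 with the GC trend removed (edgeR adjusted p = 0.426 and 0.0809). With these 2 control libraries left out, both genes were higher with IRF4 shRNA over the remaining 10 libraries, RAB11B by 0.46 and RAB4B by 0.30 (edgeR adjusted p = 0.00716 and 0.0257), where over all 12 they were not past the test. RAB4B (13024 fragments) overlaps the rows MIA-RAB4B (628) and RAB4B-EGLN2 (1017) on the same strand, so reads may be split among them.

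**Figure D5:**
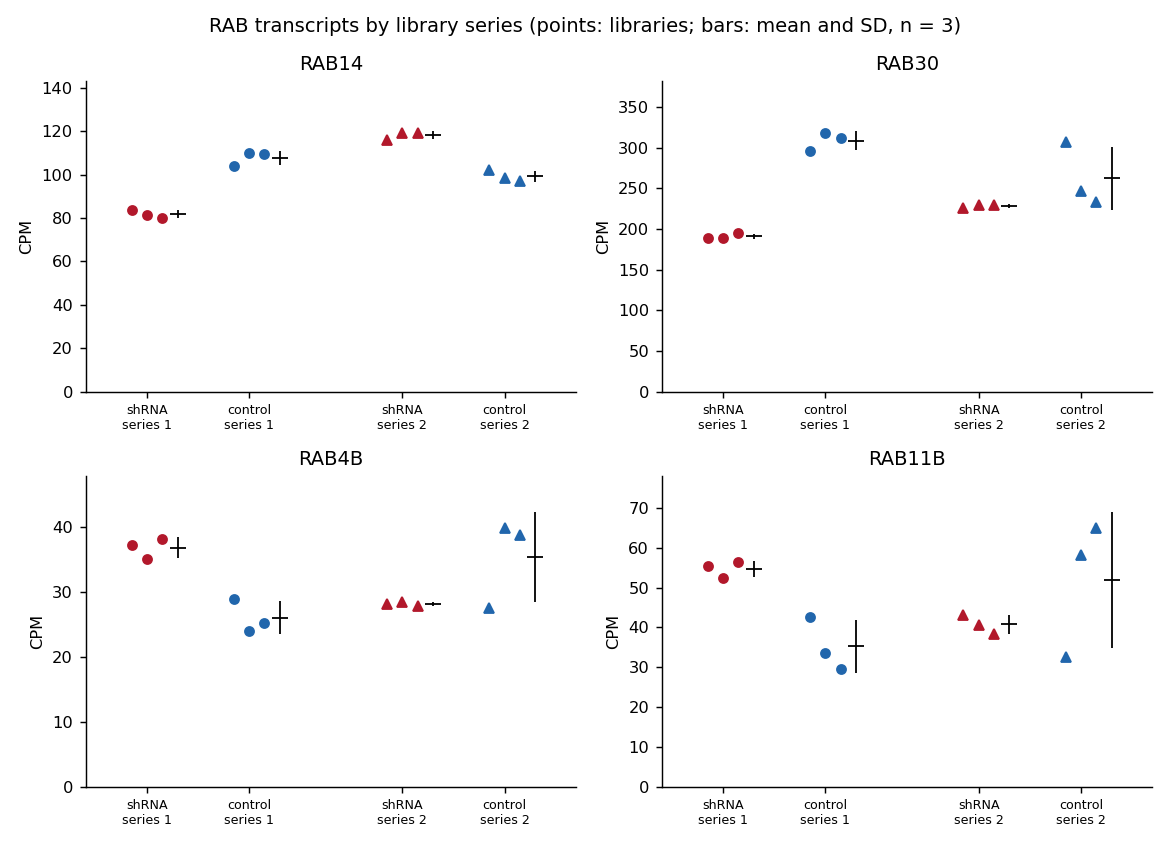
CPM of RAB14, RAB30, RAB4B and RAB11B in each library, split into series 1 (circles) and series 2 (triangles), with IRF4 shRNA left of its control; bars are mean and SD (n = 3). RAB14 with IRF4 shRNA lies below control in series 1 and above it in series 2, and for the other 3 genes control replicates 5 and 6 stand apart from replicate 4.

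RAB40C, the third of the RAB40 genes tested, averaged 15.5 ± 0.774 CPM with IRF4 shRNA and 10.4 ± 2.47 CPM in control in series 1, and 11.4 ± 1.32 CPM with IRF4 shRNA and 15 ± 3.76 CPM in control in series 2 (SD, n = 3; difference between series 0.97, edgeR adjusted p = 0.0235). RAB3A averaged 3.65 ± 0.304 CPM with IRF4 shRNA and 3.82 ± 0.326 CPM in control in series 1, and 2.69 ± 0.287 CPM with IRF4 shRNA and 4.99 ± 1.21 CPM in control in series 2 (difference between series 0.83, edgeR adjusted p = 0.0354). For RAB40C and RAB3A as well, replicates 5 and 6 were the highest control libraries. Without these 2 libraries the difference was 0.50 for RAB40C and 0.38 for RAB3A (edgeR adjusted p = 0.327 and 0.487), and with the GC trend removed it was 0.29 and 0.56 (edgeR adjusted p = 0.192 and 0.103). RAB5C differed by 0.35 between series (edgeR adjusted p = 0.0461), by 0.20 without control replicates 5 and 6 (edgeR adjusted p = 0.35) and by 0.29 with the GC trend removed (edgeR adjusted p = 0.0469).

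RAB21 differed by -0.27 (edgeR adjusted p = 0.0367) and RAB18, a RAB of lipid droplets and the ER, by -0.25 (edgeR adjusted p = 0.0483). Without control replicates 5 and 6 the difference was -0.18 for RAB21 and -0.19 for RAB18 (edgeR adjusted p = 0.269 and 0.326). With the GC trend removed it was -0.013 and -0.0078 (edgeR adjusted p = 0.924 and 0.967), so neither call held.

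The 5 members with the higher value in series 1 (RAB3A, RAB4B, RAB5C, RAB11B and RAB40C) had a transcript GC content of 53.5% to 64.4%, and the 5 with the higher value in series 2 (RAB14, RAB18, RAB21, RAB29 and RAB30) one of 36.9% to 45.5%. Across the 50 members the difference between series followed GC content with Spearman's rho of 0.76, and across 15832 genes with rho of 0.54; the genes share libraries, so these are descriptions. With the GC trend removed from each library, 3 and 2 members passed: RAB4B, RAB5C and RAB10 with the higher value in series 1, RAB14 and RAB30 with the higher value in series 2. Without control replicates 5 and 6, RAB14 and RAB30 alone passed. The part of GC content in the other differences was not tested.

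Of the genes whose proteins switch and read RABs, 54.2% were called among exchange factors, 63.6% among GTPase-activating proteins and 67.3% among effectors, against 48.2% of all genes; the lists were not tested against other genes. Among genes that act on RABs before they reach the membrane, RABGGTA, a subunit of the enzyme that attaches the prenyl anchor, was lower (-0.21), as was CHML (-0.37), an escort protein of that step, while RABIF, which binds nucleotide-free RABs, was higher (0.26).

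Exchange factors had 14 higher and 12 lower of 48 tested, with a median log2 fold change of 0.001. RIN2, an exchange factor of RAB5, was at 2.51 ± 0.217 CPM with IRF4 shRNA and 0.387 ± 0.0360 CPM in control (log2 fold change 2.68, SE 0.12, edgeR adjusted p = 1.46e-10). Its relatives RIN3 (1.61) and RIN1 (1.13), named after their values were seen, were higher too. The DENN-domain factors DENND5B (-0.82) and DENND1B (-1.05), the second of which acts on RAB35, were lower. Among other DENN-domain genes, named after their values were seen, DENND1A and DENND4A were lower (-0.40 and -0.26), and DENND1C, DENND2D, DENND4C and DENND5A were higher (0.27 to 0.35). TRAPPC10, a subunit of a tethering and exchange complex of the Golgi, was higher (0.36).

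GTPase-activating proteins had 13 higher and 8 lower of 33, with a median of 0.09. TBC1D8, a TBC-domain protein, fell to 14.3 ± 1.54 CPM with IRF4 shRNA, against 41.7 ± 2.0 CPM in control (log2 fold change -1.54, SE 0.07, edgeR adjusted p = 7.68e-11). TBC1D4, which acts on RAB10 and RAB8A, was at 7.65 ± 0.452 CPM with IRF4 shRNA and 2.35 ± 0.252 CPM in control (1.70, edgeR adjusted p = 2.82e-10). USP6NL, which acts on RAB5, and TBC1D5, which acts on RAB7, were higher by 0.72 and 0.47.

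Effectors had 19 higher and 14 lower of 49, with a median of 0.12. MICAL1, an actin-oxidising effector of the RAB8 group, rose to 132 ± 2.19 CPM with IRF4 shRNA, against 47.1 ± 2.56 CPM in control (log2 fold change 1.49, SE 0.04, edgeR adjusted p = 2.49e-13). The RAB11 effectors RAB11FIP1 (1.08) and RAB11FIP4 (0.97) were higher, and the kinase LRRK1 (-0.44) was lower. Partners of RAB27A and RAB29 were looked up after the values were seen. Of RAB27A effectors, SYTL2 was at 3.73 ± 0.920 CPM with IRF4 shRNA and 1.42 ± 0.226 CPM in control (1.39), and UNC13D, which primes lytic granules, at 6.24 ± 0.787 CPM with IRF4 shRNA and 2.99 ± 1.03 CPM in control (1.06). SYTL1 (-0.66) and SYTL3 (-1.06), which also bind RAB27A, were lower. LRRK2, the kinase that RAB29 recruits, was lower at 120 ± 20.5 CPM with IRF4 shRNA and 165 ± 17.0 CPM in control (-0.46, edgeR adjusted p = 0.00166).

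Of the other small GTPase families, ARF and SAR genes had 5 higher and 3 lower of 24, and RAS, RAP and RAL genes 6 higher and 5 lower of 18, beside 10 higher and 14 lower of 50 for RAB genes. The RAB count was not tested against these families.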

How the data were processed

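RNA-seq libraries of TMD8 cells were compared, 6 with IRF4 shRNA and 6 with scramble shRNA. The authors deposited estimated counts per gene as a merged table, 66.6% of them whole to within 1e-06; they used STAR, HTSeq and the hg38 build, per the submitters' processing notes, while versions, annotation and strand setting are not given in the sources used here. Exon lengths and GC content came from GENCODE 29, for all 59 members. Counts were rounded, filtered with filterByExpr (minimum count 10), scaled by TMM and tested with edgeR 4.0.16 (quasi-likelihood F test, R 4.3.3) over all libraries, within each series, and for the difference between series; p-values were Benjamini-Hochberg adjusted over all genes tested, at 0.05. CPM values use TMM-scaled library sizes, and SE is the log2 fold change divided by the root of F. The code was tested on simulated data. No same-group pair of libraries within a series agreed within counting noise (chi-square per degree of freedom 2.73 to 31.9).

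Per-library values are given for RAB29, RAB14, members called with at least 1.5-fold and the same sign in both series, the 5 highest per kb, members past the test between series, and paralogue pairs called in opposite directions; up to 4 genes with the smallest p were named per regulator list, and some listed genes are not reported here. RAB members and all lists were chosen with earlier results of these data known. Alternatives were another scaling, DESeq2 1.42.0, other filters, a series term, GC trend removal (spline with 5 degrees of freedom), summed counts, a replicate block, and leaving out libraries; leaving out control replicates 5 and 6 in the test between series was chosen after seeing the data.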

Additional observations from a re-analysis of the deposited data

Results flagged for a closer look

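RAB42 in control replicate 5 was the single named member value that stood outside its group of 6, at 0.337 CPM where the nearest other control library had 0.509 CPM; 46 sets of group values were checked, and chance alone sets 1 apart in about 1 of 20 sets. Without this library RAB42 stayed lower with IRF4 shRNA.

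The effect of IRF4 shRNA differed between the library series, by the edgeR test of the difference itself, for 10 RAB genes and IRF4. On the log2 scale, series 1 minus series 2, the difference was -0.65 for RAB14, -0.49 for RAB30, -0.27 for RAB21, -0.25 for RAB18 and -0.19 for RAB29. It was 0.98 for RAB11B, 0.97 for RAB40C, 0.83 for RAB4B, 0.83 for RAB3A and 0.35 for RAB5C. For IRF4 it was -0.46. RAB14 and RAB30 passed under all 19 alternatives and RAB4B under 18, while the other 7 RAB genes lost the call under 11 to 15 of the 19.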

How the results depend on the processing

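IRF4 kept its direction and call under all 24 alternatives, as did RAB8B, RAB15, RAB20, RAB27A, RAB29, RAB30 and RAB36, and RAB40B and RAB42 under the 23 that kept them. The filter of 1 CPM removed RAB40B and RAB42. Both had met the main filter only with the group where each was higher, so their kept calls are not separate support. RAB40A lost its call under 13 of 23 alternatives and RAB3A under 6 of 24. Over all libraries, 9 members were lower when scaled by library size alone, which moved the median of all genes by 0.07 and the rises among all calls to 63.9% (50.3% with TMM); 4 were lower and 6 higher with counts summed per group and series. The replicate numbers did not pair the libraries (correlations of deviations -0.25 to 0.13), and a replicate block by title numbers left 8 lower and one by library names 9. Leaving out 1 library gave 9 to 16 lower, the 9 without IRF4 shRNA replicate 6, and 10 to 12 higher. In series 2, 12 were lower with the GC trend removed and 11 with block and GC together, and leaving out 1 library gave 3 to 14 lower (3 without IRF4 shRNA replicate 5, 14 without control replicate 4) and 6 to 13 higher (6 without IRF4 shRNA replicate 6). Between series, members with the higher value in series 1 numbered 8 by DESeq2, 3 with the GC trend removed, 0 without control replicates 5 and 6, and 1 to 9 with 1 library left out; those with the higher value in series 2 numbered 2 with the GC trend removed, 2 without control replicates 5 and 6, and 2 to 10 with 1 library left out, the highest counts being those without control replicate 4. Paralogue pairs past the test ranged from 3 to 8. RAB14, near 0 over all libraries, turned to 0.024 by library size alone and ranged from -0.091 to 0.021 with 1 library left out, positive without IRF4 shRNA replicate 1, 2 or 3. RAB18 turned to 0.071 by library size alone, 0.0080 without a filter, 0.038 with the GC trend removed, 0.0033 summed, 0.00067 with the title block, 0.00064 with the block of library names, 0.039 with block and GC, and ranged from -0.036 to 0.029 with 1 library left out. RAB40C ranged from -0.018 (without control replicate 3) to 0.21 with 1 library left out. RAB1B was lower with the GC trend removed (-0.17). The causes were not tested. Depth limits the members under 1 CPM most.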
